A study of Rattus norvegicus with 11 samples.

Results

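miR-184 was followed in pancreatic islets of Sprague-Dawley rats at 2 ages, 10 days after birth (P10, 5 libraries) and 3 months (adult males, 6 libraries). Its members were chosen by name, as the sense features called miR-184, and 2 of the 950 deposited features met that rule, the 3p and the 5p arm of a single hairpin. All animals were labelled as controls, no other treatment or allele is given, and the labels state the sex of the adults only, so age and sex cannot be told apart. Small RNA of total islet RNA was sequenced, and the values are read counts per mature arm. The labels call the libraries biological replicates without saying whether each is 1 animal or a pool, so p-values measure the spread between these libraries.

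A microRNA is cut from a hairpin precursor, and 1 of its arms is loaded into an Argonaute protein, where bases 2 to 8, the seed, pair with target messenger RNAs. miR-184 is a conserved miRNA known from corneal and lens epithelium, brain, testis and pancreatic islets. In islet beta cells it is known to target Argonaute 2, itself the protein through which many beta cell miRNAs act, and its level there is known to be reduced in insulin-resistant mice.

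The sequences below show what was counted. They are those of RefSeq (GRCr8). The first has the seed in capitals, and the hairpin has in capitals the 3p arm and the stretch that lies where the files place the 5p arm, 13 bases upstream of the 3p arm.
miR-184-3p: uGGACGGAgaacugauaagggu
Mir184 hairpin: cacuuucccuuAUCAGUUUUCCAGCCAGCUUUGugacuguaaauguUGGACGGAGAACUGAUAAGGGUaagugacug

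In the files the 3p arm lies on chromosome 8 of Rnor_5.0, from 96677921 to 96677942 on the minus strand, and the 5p arm from 96677956 to 96677977. Both span 22 bases. In the hairpin of 77 bases the 5p stretch covers positions 12 to 33 and the 3p arm positions 47 to 68, counted from the 5′ end. In the predicted minimum free energy fold (-40.5 kcal/mol), 19 of the 22 bases of the 3p arm and 20 of the 22 bases of the 5p stretch were paired. Of 724 mature rat sequences in the RefSeq table, 1 carries this seed, miR-184 itself. RefSeq places no other gene over the hairpin, and the nearest protein-coding genes are Ankrd34c and Rasgrf1, so the gene is intergenic in that annotation. The table holds 1 row for each arm and 0 antisense rows of miR-184.

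miR-184-3p fell between P10 and adulthood, by 2.39-fold. At P10 it stood at 270.2, 403.3, 351.4, 394.4 and 436.8 CPM (counts scaled to a common library size, with edgeR's TMM factors for library composition) in replicates 1, 3, 4, 5 and 6. In adults it stood at 113.3 CPM in the lowest library, at 146.3 in the median and at 228.6 in the highest. The groups did not overlap: the lowest pup library, replicate 1, was 1.18 times the highest adult library, also replicate 1. The pups averaged 371.2 ± 64.2 CPM (SD, n = 5), the adults 155.2 ± 44.6 CPM (SD, n = 6). The log2 fold change was -1.26 ± 0.20 (SE; edgeR quasi-likelihood test, Benjamini-Hochberg adjusted p = 0.000160 over 457 tested features), so the difference exceeded the spread between replicates. Of the 457 features, 50.8% were called at an adjusted p below 0.05, 29.5% as lower and 21.2% as higher in adults, and the ages did not overlap for 30.0%, with 16.4% lower without overlap. Calls of higher level made up 41.8% of all calls, against 22.4% with library totals alone, 55.2% with upper-quartile scaling and 57.6% with the mesenchymal covariate described further on. In bulk islets, fewer cells that hold miR-184 and less miR-184 per cell cannot be told apart.

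**Figure D1:**
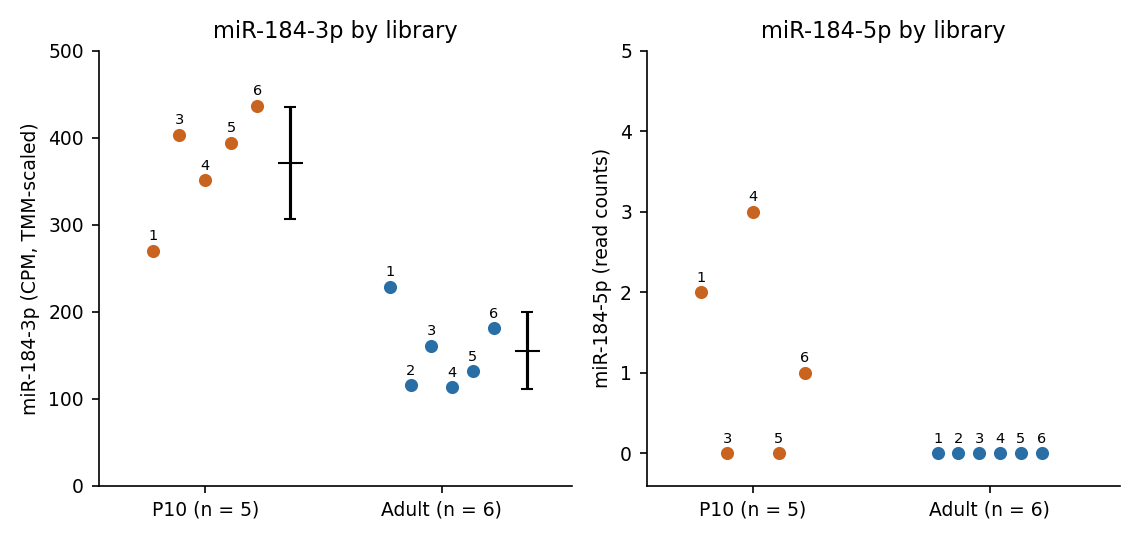
Level of the 3p arm in CPM (left) and read counts of the 5p arm (right) in each library, labelled by replicate number; on the left the bar is the mean and its whiskers the SD. The 5 P10 libraries hold 270.2 to 436.8 CPM of miR-184-3p and the 6 adult libraries 113.3 to 228.6 CPM, and the 5p arm has at most 3 reads in any library.

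These levels rest on 164 or more reads in each library. miR-184-3p had 818, 600, 1332, 1384 and 2101 counts in the P10 libraries (replicates 1, 3, 4, 5 and 6). It had 270, 303, 234, 164, 357 and 355 counts in adult replicates 1 to 6. The smallest of these, 164, has an exact Poisson interval of 139.9 to 191.1 at 95%, which covers counting error only. Counting alone would give a coefficient of variation of 2.83% at P10 and 5.97% in adults, against 17.3% and 28.8% observed. The libraries of an age thus spread by more than counting error. After age was accounted for, log2 CPM of miR-184-3p had an SD of 0.35, while 80 features within 2-fold of its mean level had a median SD of 0.29, and 48 of them varied less.

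In these islet libraries miR-184-3p stood in the upper part of the abundance order, well below its top. By mean CPM it ranked 103 of 898 features at P10 and 141 in adults, and its rank ran from 90 to 117 in the pup libraries and from 120 to 159 in the adult ones. Ligation and PCR favour some sequences, so a rank among miRNAs is approximate. At P10 the features next to it in the order were miR-423-5p (379.3 CPM), miR-145-5p (377.1), miR-150-5p (367.5) and miR-93-5p (362.8). In adults they were miR-325-5p (157.7 CPM), miR-433-3p (156.1), miR-205-3p (152.2) and miR-93-5p (147.8). All of these overlapped miR-184-3p in range at the age given, but they were picked for a nearby mean, so the overlap tests nothing. miR-93-5p stood beside it at both ages.

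As a share of all counts, which uses no scaling factor, miR-184-3p took 0.0407% ± 0.00577 at P10 (SD, n = 5) and 0.0142% ± 0.00336 in adults (SD, n = 6). The pup libraries ran from 0.0333% to 0.0470% and the adult libraries from 0.0106% to 0.0189%, with no overlap. The difference of -0.0266 percentage points gave p = 0.00216 in a two-sided exact permutation test over 462 splits, the smallest p those splits can give (adjusted p = 0.00361 over 5 measures of share, ratio and arm usage). With library totals alone the log2 fold change was -1.53, but the median of all features then moved by -0.27. With upper-quartile scaling it was -1.11, with the median moved by 0.16.

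The 5p arm was close to undetected. It had 2, 0, 3, 0 and 1 counts in P10 replicates 1, 3, 4, 5 and 6, and 0 counts in each of the 6 adult libraries, and it did not pass the abundance filter. Summed over libraries it held 6 of 7924 miR-184 counts, a share of 0.0757% (exact Clopper-Pearson interval 0.0278% to 0.165%, counting error only). At P10 the share was 0.0961% (0.0353% to 0.209%), and in adults it was 0 of 1683 counts, for which the same exact interval reaches 0.219% and the limit of 3 counts of the total is 0.178%. A difference in arm usage between ages was not detectable at this depth (two-sided exact permutation p = 0.0606 over 462 splits, adjusted p = 0.0606 over the 5 measures). With 5p reads in so few libraries, this test could not give a smaller p, so it cannot decide whether arm usage differed. Without the abundance filter the 5p arm gave an edgeR adjusted p = 0.108 over 898 features. Among 150 named hairpins with both arms listed and at least 1000 counts, the minor arm held a median of 1.73% of the counts, and 24 had a smaller minor-arm share than miR-184.

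The islet and neuroendocrine miRNAs of the same libraries mostly moved the other way. The list held every arm of miR-375, miR-7a, miR-7b, miR-204, miR-211, miR-129, miR-153, miR-96, miR-182 and miR-183 beside miR-184; miR-182 matched no row. Beside miR-184-3p it had 17 tested arms: 9 of them rose and 1 fell, while 7 missed the threshold, against 21.2% of all features called higher and 29.5% called lower. Arms of the same hairpin and loci of the same miRNA count separately here, so these arms are not independent. The other arms had a median log2 fold change of 0.65, against -0.11 over all 457 features, and ran from -0.38 to 1.73, all above the -1.26 of miR-184-3p. With library totals alone, 5 of the 18 tested arms of the list were called higher and 2, miR-184-3p and miR-183-5p, lower. With the mesenchymal covariate described further on, 2 were called higher and 0 lower.

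The other arm called lower, miR-183-5p, comes from a cluster known from sensory organs and neuroendocrine cells. It stood at 7786, 11006, 6970, 7082 and 8255 CPM at P10, and from 5729 to 7170 CPM in adults. The ranges overlapped, and its log2 fold change was -0.38 ± 0.12 (SE; edgeR adjusted p = 0.0191). That call ended with DESeq2's size factors, with DESeq2 and with upper-quartile scaling, under all of which miR-184-3p remained the only arm of the list called lower. miR-204-5p, a miRNA known in beta cells as a regulator of the insulin activator MafA, had a log2 fold change of 0.51 (edgeR adjusted p = 0.0245). miR-153-3p, an arm known to repress synaptic vesicle genes, averaged 666.0 ± 305.7 CPM in the pups (SD, n = 5) and 1048 ± 148 CPM in the adults (SD, n = 6), which missed the threshold (edgeR adjusted p = 0.0524).

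**Figure D2:**
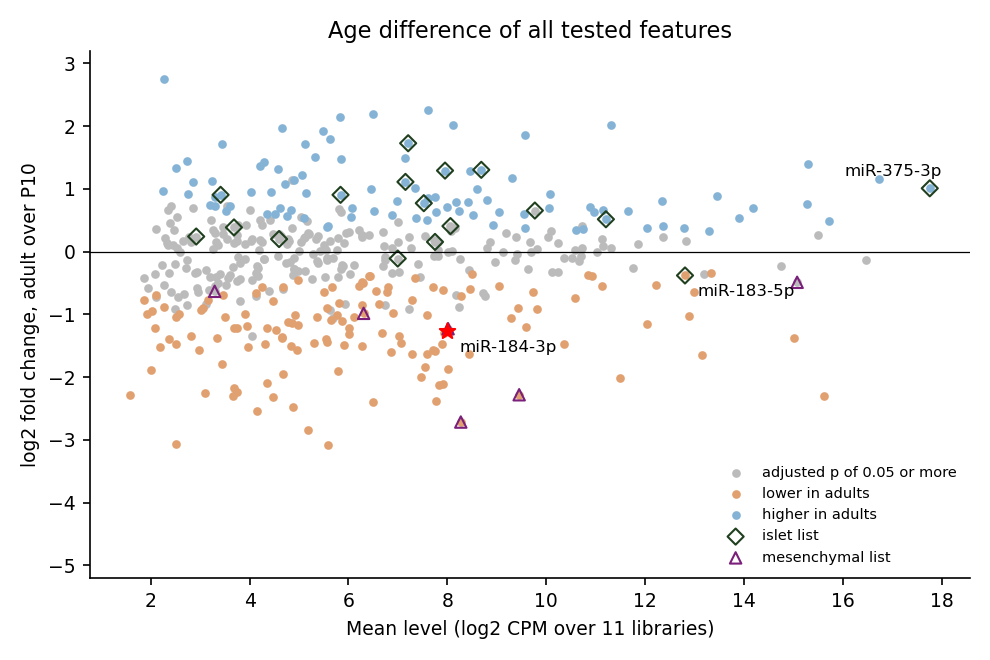
Log2 fold change of adult over P10 islets (vertical) against mean level in log2 CPM (horizontal) for the 457 tested features, with the islet list as diamonds, the mesenchymal marker list as triangles and miR-184-3p as a star, which covers the triangle of miR-145-5p. miR-184-3p lies at -1.26, below every other tested arm of the islet list, whose lowest value is the -0.38 of miR-183-5p.

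Set against miR-375-3p, the miRNA that leads endocrine cells and restrains insulin secretion, miR-184-3p differed more between ages than in CPM. That ratio also takes in the rise of miR-375-3p itself (edgeR log2 fold change 1.01, adjusted p = 8.67e-06). miR-375-3p stood at 113191 to 166035 CPM at P10 and at 251321 to 325126 CPM in adults. For each count of miR-184-3p there were 520.8, 280.6, 385.1, 421.0 and 367.4 counts of miR-375-3p in P10 replicates 1, 3, 4, 5 and 6. In adult replicates 1 to 6 that number was 1422, 2172, 1637, 2691, 2215 and 1605. Every adult library thus lay above every pup library. On the log2 scale, with 0.5 added to each count, the ratio of miR-184-3p to miR-375-3p was -8.60 ± 0.32 at P10 (SD, n = 5) and -10.9 ± 0.35 in adults (SD, n = 6). The difference of -2.30, a 4.92-fold lower ratio, gave p = 0.00216 (two-sided exact permutation over 462 splits, adjusted p = 0.00361).

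Relative to the sum of all other islet list members the log2 ratio differed by -2.24 between ages (exact permutation p = 0.00216, adjusted p = 0.00361), again without overlap. miR-375-3p makes up 94.4% of that sum, so this largely repeats the ratio to miR-375-3p. Without the miR-375 arms the difference was -1.33 (exact permutation p = 0.00433).

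**Figure D3:**
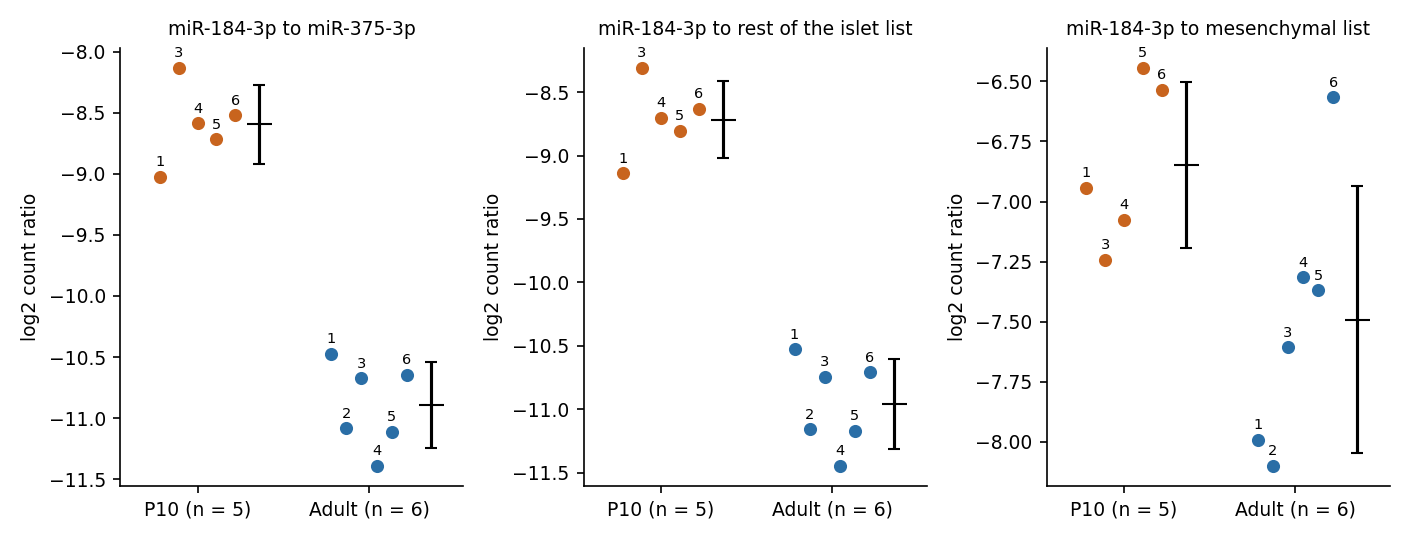
Log2 ratio of the count of miR-184-3p to miR-375-3p (left), to the summed counts of the rest of the islet list (middle) and to the summed counts of the mesenchymal list (right) in each library, labelled by replicate number, with mean and SD; each panel has its own vertical range. The ages do not overlap on the left and in the middle (differences of -2.30 and -2.24), and they overlap on the right (-0.64).

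Marker miRNAs of other cell types were read in the same libraries. Of the mesenchymal names (miR-199a, miR-199b, miR-214, miR-143, miR-145), 3 of 5 matched sense rows by name. Antisense rows and rows under other names were not searched for any marker list. Of their 6 tested arms 0 rose and 4 fell, with a median log2 fold change of -1.11, against 21.2% of all features called higher, 29.5% called lower and a median of -0.11. Their summed level ran from 33256 to 61145 CPM at P10 and from 17177 to 58305 CPM in adults, and none of the 6 arms was without counts. Adult replicate 1, the highest adult library for miR-184-3p, was also the highest adult library for this sum. Adult replicate 6, the next highest for miR-184-3p at 181.2 CPM, had the lowest sum, 17177 CPM. The mean log2 CPM over the 6 arms ran from 8.76 to 9.16 at P10 and from 6.91 to 8.49 in adults. The ages thus did not overlap in this mean, which correlated with age at -0.87 (Pearson). With this mean as a covariate the log2 fold change of miR-184-3p was -0.79 ± 0.38 (SE; edgeR adjusted p = 0.216), which ends the call. The SE without it was 0.20. In that fit 33 features passed, against 232 without the covariate. Age and this mean cannot be told apart here, so the lost call decides nothing about either.

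The ratio of miR-184-3p to the summed mesenchymal counts was -6.85 ± 0.35 at P10 (SD, n = 5) and -7.49 ± 0.55 in adults (SD, n = 6) on the log2 scale. Its difference of -0.64 did not pass (two-sided exact permutation p = 0.0541 over 462 splits, adjusted p = 0.0606), and the ages overlapped through adult replicate 6. The difference was -0.83 without that library (exact permutation p = 0.00794, unadjusted) and -0.74 without P10 replicate 3 (p = 0.0476, unadjusted). Leaving out any other library gave exact permutation p from 0.0619 to 0.119. Only adult replicate 6 overlapped the pups, so its removal fixed a small p in advance and decides nothing. miR-143-3p, of smooth muscle and fibroblasts, makes up 95.6% of the sum. Without the miR-143 and miR-145 arms only those of miR-199a remain, and the difference turned to 1.27 (exact permutation p = 0.00433): miR-184-3p fell less than the arms of miR-199a.

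The counts of the other marker lists stand against the same 21.2% of all features called higher and 29.5% called lower. Of the leukocyte arms (miR-142, miR-150, miR-155, miR-223) 1 of 4 tested fell and 0 rose, with sums of 681.2 to 1427 CPM at P10 and 249.0 to 832.5 CPM in adults. Of the acinar arms (miR-216a, miR-216b, miR-217) 2 of 3 tested rose, with sums of 22.2 to 37.7 CPM at P10 and 28.6 to 127.1 CPM in adults. Of the epithelial arms (miR-200b, miR-141 and miR-429, the names of the miR-200 family that matched rows) 3 of 5 tested rose, from sums of 24841 to 38561 CPM to sums of 48882 to 59676 CPM. Of the erythroid arms 0 of 2 passed, with sums of 24.2 to 72.3 CPM at P10 and 14.5 to 63.8 CPM in adults, and of the neuronal and glial arms 0 of 1 passed, with sums of 6.72 to 14.6 and 6.13 to 13.7 CPM. The squamous epithelial list, of interest because miR-184 is known from the cornea, had 1 row, miR-205-3p, at 141.2 to 220.0 CPM at P10 and 110.7 to 199.0 CPM in adults (log2 fold change -0.40, edgeR adjusted p = 0.0736). The endothelial name miR-126 matched no row. The part of these other lists in the fall of miR-184-3p was not tested, and that of the mesenchymal list cannot be told apart from age. The endocrine markers miR-375, miR-7a and miR-7b, which check the islet label, summed to 113604 to 166588 CPM at P10 and 252751 to 326109 CPM in adults. Nearly all of that sum is miR-375-3p, with a mean of 143152 of 143759 CPM at P10 and 287885 of 289230 CPM in adults.

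Among the 135 features called lower, the fall of miR-184-3p ranked 60 by log2 fold change. Among the 30 of them with a mean CPM at least as high as its own, it ranked 10. Without adult replicate 1, its highest adult library, the log2 fold change was -1.40 (edgeR adjusted p = 3.12e-05).

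The features whose levels followed miR-184-3p most closely were taken by the root mean square difference of log2 CPM over the 11 libraries, after each feature was centred on its mean. Over 226 candidates of at least 50 CPM the median difference was 0.77. The nearest 5 were miR-298-5p (0.26), miR-93-5p (0.26), miR-92a1-3p (0.26), miR-181b2-5p (0.26) and miR-181a-5p (0.27). Their sequences are given to compare seeds, in capitals: the miR-181 pair share a seed, and the others differ from each other and from miR-184.
miR-298-5p: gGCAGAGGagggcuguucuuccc
miR-93-5p: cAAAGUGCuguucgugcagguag
miR-92a1-3p: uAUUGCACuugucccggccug
miR-181b2-5p: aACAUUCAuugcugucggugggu
miR-181a-5p: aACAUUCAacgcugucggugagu

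All 5 were chosen for their likeness, so their age difference is a description. miR-93-5p, from the cluster within Mcm7 that is paralogous to miR-17~92, averaged 362.8 ± 23.1 CPM in the pups (SD, n = 5) and was 2.45-fold lower in the adults, at 147.8 ± 21.6 CPM (SD, n = 6). miR-92a1-3p, of the miR-17~92 cluster itself, was 2.77-fold lower, and miR-298-5p, from the imprinted Gnas locus, was 1.86-fold lower. The miR-181 arms, from a family known from lymphocyte development, were 2.14-fold (miR-181b2-5p) and 2.05-fold (miR-181a-5p) lower. These features lie on chromosomes 3, 12 and 15, away from miR-184. P10 replicate 1 was the lowest pup library for miR-184-3p, miR-298-5p, miR-93-5p and miR-181a-5p, and not for miR-92a1-3p or miR-181b2-5p. Adult replicate 1 was the highest adult library for miR-184-3p and for each of the 5 except miR-298-5p, which was highest in adult replicate 3.

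**Figure D4:**
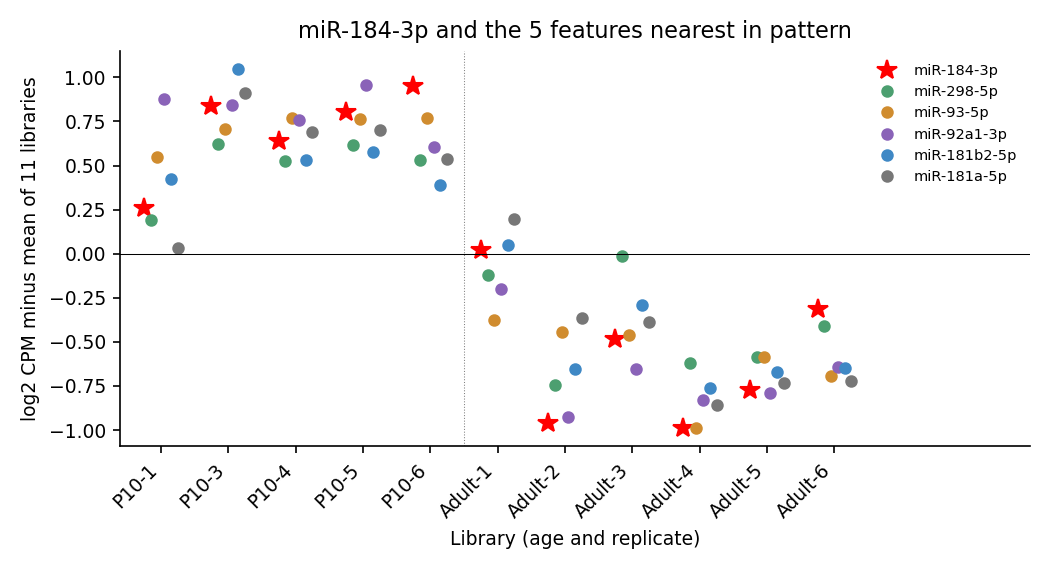
Log2 CPM minus the mean of the 11 libraries (vertical) in each library (horizontal) for miR-184-3p (stars) and the 5 features nearest to it in pattern (dots). All 6 lie above their mean in each P10 library and, apart from some values of adult replicate 1, below it in the adult libraries.

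On its chromosome miR-184 stands alone among the counted miRNAs. The nearest other features in the files are miR-190-3p, 16.1 Mb towards lower coordinates, and ENSRNOT00000073748_-5p, 17.5 Mb towards higher coordinates. miR-190-3p, which has 2 rows, averaged 0.163 CPM at P10 and 0.725 CPM in adults and was not tested. ENSRNOT00000073748_-5p averaged 8.75 CPM at P10 and 4.84 CPM in adults (log2 fold change -0.85, edgeR adjusted p = 0.0526).

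**Figure D5:**
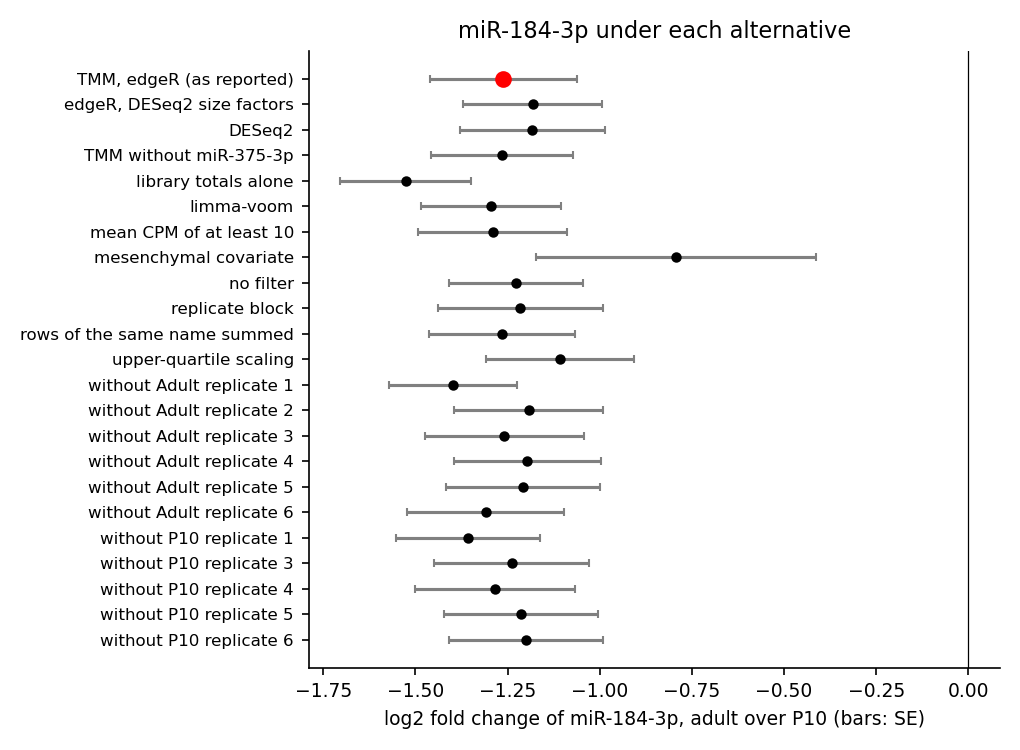
Log2 fold change of miR-184-3p, adult over P10, with its SE, in the reported fit (red) and under each alternative scaling, filter, test, covariate or left-out library. All values lie below 0, from -1.53 with library totals alone to -0.79 with the mesenchymal covariate.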

How the data were processed

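Small RNA libraries were made from total islet RNA with a TruSeq small RNA kit, per the labels' protocols. The deposited values are raw counts of reads, 1 row per mature arm and locus, in Rnor_5.0 coordinates per the file headers. The submitters' processing notes list rn5, DESeq and edgeR without saying what each was used for. Which aligner, counting rules and annotation were used is not given in the sources used here. All 11 per-library tables equalled the series table. Library totals ran from 1432929 to 4483017 counts. Each name entered once, with its highest count per library, leaving 898 features from 950 rows.

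In R 4.3.3, edgeR 4.0.16 filtered features (filterByExpr), scaled them by TMM and tested age in all 11 libraries with its robust quasi-likelihood fit, with an adjusted p threshold of 0.05. CPM used TMM-scaled library sizes, and log2 CPM a prior count of 2. Shares, ratios and arm usage were compared by exact permutation, with Benjamini-Hochberg adjustment over 5 measures. Alternatives were other scalings and filters, DESeq2 1.42.0, limma-voom (limma 3.58.1), a replicate block, a mesenchymal covariate, summed rows and each library left out. The edgeR step was tested on simulated data. Between libraries of an age the chi-square of the counts was at least 12.1 per degree of freedom, so none looked like a repeat deposit.

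The members, lists and rules were chosen with earlier results of these data known. Named were both miR-184 arms, miR-375-3p, the 2 features next above and below in level at each age, the 5 nearest in pattern with at least 50 CPM, the 4 most abundant and all lower islet list members, and the nearest feature on each side; miR-143-3p was named after its values were seen.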

Additional observations from a re-analysis of the deposited data

Results flagged for a closer look

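In 41 sets of values, each of 1 feature, ratio or marker sum at 1 age, a single library stood far from the rest in 6, where chance gives about 5%. None of these was miR-184-3p itself. Among the features nearest to it in pattern, P10 replicate 1 was low for miR-298-5p (745.3 CPM, others 940.3 to 1005) and for miR-93-5p (323.1 CPM, others 361.7 to 376.7). Adult replicate 1 was high for miR-92a1-3p (1001 CPM, others 607.2 to 737.2), and P10 replicate 3 was high for miR-181b2-5p (110.9 CPM, others 69.9 to 79.8). The summed mesenchymal markers were high in adult replicate 1 (58305 CPM, others 17177 to 31810), the adult library with the most miR-184-3p. The lowest sum, 17177 CPM, was that of adult replicate 6, the next highest adult library for miR-184-3p (181.2 CPM). The squamous epithelial marker miR-205-3p was low in P10 replicate 3 (141.2 CPM, others 209.4 to 220.0).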

How the results depend on the processing

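The fall of miR-184-3p kept its direction and its call in 21 of 22 alternatives, with log2 fold changes from -1.53 to -1.11 and adjusted p from 1.25e-08 to 0.00244. The exception was the mesenchymal covariate (-0.79), with which 33 features and 2 islet list members passed, against 232 and 11. That covariate correlated with age at -0.87 (Pearson), so this fit cannot tell it and age apart. Library totals alone left 7 islet list members. Leaving out each library gave -1.40 to -1.19 for the fold change, 197 to 230 features called, 10 to 12 islet list members, a share difference of -0.0285 to -0.0250 percentage points, and ratio differences of -2.41 to -2.18 to miR-375-3p, -2.35 to -2.14 to the islet list and -0.83 to -0.52 to the mesenchymal sum. For the 5p share it gave -0.129 to -0.0681. Without P10 replicate 3 or 5, which held no 5p reads, the exact permutation p was 0.0333, unadjusted. With 5p reads in so few libraries, this is the smallest p those splits could give, so it cannot decide whether arm usage differed. Without miR-143 and miR-145 the mesenchymal ratio reversed to 1.27. Same-numbered libraries correlated at -0.21 to 0.20 in their deviations, and 0 of 5 pup libraries correlated best with their own number. No pairing by number was seen, though this check cannot settle whether the numbers pair the libraries. With the replicate block the fold change was -1.22, 205 features passed, and the paired share difference was -0.0260 (exact sign-flip p = 0.0625, the smallest 5 pairs allow). The alternative fits of the fold change could not be run for the 5p arm, except without a filter, as it failed each filter. In adults the depth cannot show 5p shares under 0.178% (3 counts of the total).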
